A study of Mus musculus with 3 samples.

Results

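The mature neutrophil S100 and receptor genes are 8 genes, S100a8, S100a9, Retnlg, Csf3r, Cxcr2, Fpr1, Fpr2 and Il1b, of the 26970 genes measured in mouse mandibular condyles. They were chosen by name with their values in these libraries already known, so their differences from WT are a description and carry no test. All 8 were in the table and averaged 1 FPKM or more over the libraries, as did the 13026 genes that were compared. Poly(A) RNA of condyles was sequenced, and the table holds 1 library per genotype, although the labels speak of triplicates. WT carries both Dspp alleles (+/+), Dspp+/- lacks 1 allele and Dspp-/- lacks both, in a global knockout on the C57BL/6 background. The condyles kept cartilage and subchondral bone together, and no sorting of cells is described. All mice were 4 months old. Tissue of 3 animals was pooled for WT and likewise for Dspp+/-, and the number of Dspp-/- animals is not given in the sources used here. There are no replicates, so every difference below is between single libraries and its interval covers counting error only.

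Neutrophils are made in bone marrow, where promyelocytes first fill primary granules, later precursors fill secondary and tertiary granules, and mature cells then wait in the marrow before entering the blood. S100A8 and S100A9 form calprotectin, a calcium- and zinc-binding complex that makes up much of the neutrophil cytosol. The G-CSF receptor drives production of these cells, CXCR2 draws them out of the marrow and towards chemokines, and the formyl peptide receptors sense bacterial and mitochondrial peptides. Interleukin 1 beta, which monocytes and macrophages also make, is a cytokine of inflamed joints. PU.1 and the C/EBP proteins are the transcription factors best known for switching on myeloid genes.

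Because the 8 genes differ from WT in the same direction, their promoters are shown for letters that these factors can bind. All 8 had an entry of 250 bases before to 50 bases after the start in RefSeq (GRCm38.p6). Both strands were searched for GAGGAA (PU.1), TTGCNNAA (C/EBP) and the NF-kappaB motif, and none of the matches found overlapped another. The PU.1 letters were in the promoters of 4 genes, S100a8, Csf3r, Cxcr2 and Fpr2, against 28.3% of 32851 mouse promoters of the same length. The C/EBP letters were in those of 2 genes, S100a9 and Retnlg, against 10.8% of all. The NF-kappaB motif was in none of the 8 and in 4.51% of all promoters. A stretch of 100 bases holding a match is given for each of these 6 genes, 5′ to 3′ on the strand of the gene, with matched letters of either strand in capitals. The first 4 stretches end at the base before the start, and the last 2 begin 250 bases before it.
S100a8, chr3:90668971-90669070, plus strand: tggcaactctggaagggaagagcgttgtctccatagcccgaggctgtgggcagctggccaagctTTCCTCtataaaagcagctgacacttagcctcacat
Csf3r, chr4:126024559-126024658, plus strand: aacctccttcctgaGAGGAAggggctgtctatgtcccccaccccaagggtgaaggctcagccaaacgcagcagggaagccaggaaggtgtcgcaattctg
Cxcr2, chr1:74153894-74153993, plus strand: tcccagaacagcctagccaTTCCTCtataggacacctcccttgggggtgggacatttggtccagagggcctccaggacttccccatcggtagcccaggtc
Fpr2, chr17:17887724-17887823, plus strand: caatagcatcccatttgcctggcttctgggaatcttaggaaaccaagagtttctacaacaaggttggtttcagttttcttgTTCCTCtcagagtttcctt
S100a9, chr3:90695872-90695971, minus strand: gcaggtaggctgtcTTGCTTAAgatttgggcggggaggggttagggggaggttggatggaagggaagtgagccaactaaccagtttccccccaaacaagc
Retnlg, chr16:48872358-48872457, plus strand: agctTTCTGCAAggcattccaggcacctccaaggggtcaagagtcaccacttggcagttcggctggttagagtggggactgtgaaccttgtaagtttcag

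A match of letters is a description and no evidence of binding. The match in S100a8 began 36 bases before the start, that in Fpr2 19 bases, that in Cxcr2 81 bases and that in Csf3r 86 bases. S100a8 held another PU.1 match 170 bases before the start, and Cxcr2 held one just after it. The promoters of Il1b and Fpr1 held none of the searched letters in this window.

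The libraries differed in more than these genes, and the WT library stood apart in mitochondrial share, Xist and red cell precursor markers. From 20241575 to 23613621 fragments lay behind the values of a library. Mitochondrial genes took 9.60% of the fragments in the WT library, 16.6% in that of Dspp+/- and 16.2% in that of Dspp-/-. Xist, which is transcribed in female cells, had 2 fragments in WT against 12084 in Dspp+/- and 10563 in Dspp-/-. Sex and genotype therefore cannot be told apart in the comparisons with WT. The 7 osteoblast markers, which include Col1a1, were all lower in both mutant libraries, with a summed level of 10149 FPKM (WT), 2711 (Dspp+/-) and 5299 (Dspp-/-). The 7 red cell precursor markers were all at least 2-fold higher, with 830, 3509 and 3346 FPKM in the same order. The mutant libraries also differed from each other. Median log2 ratios of Dspp-/- over Dspp+/- were 1.33 for chondrocyte, 0.69 for osteoclast and 0.53 for osteoblast markers. The part of these differences in the values below was not tested.

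The transcripts of S100a8 and S100a9 were the most abundant of the 8 in every library and were higher in both mutant libraries than in WT. S100a8 (ENSMUSG00000056054, chromosome 3, 90576285 to 90577342 in the authors' table, whose build is not named) had 133 FPKM in WT against 542 in Dspp+/- and 956 in Dspp-/-. FPKM is the number of fragments scaled to the length of the gene and the depth of the library. These values rest on 1866, 8875 and 14762 fragments. Its FPKM fold over WT was 4.08 (95% counting interval 3.88 to 4.29) for Dspp+/- and 7.20 (6.86 to 7.55) for Dspp-/-. WT was lowest and Dspp-/- highest, and the counting intervals of the folds do not overlap. S100a9 (ENSMUSG00000056071, chromosome 3, 90599939 to 90603028), which encodes the partner subunit, had 232 FPKM in the WT library, 916 in that of Dspp+/- and 1339 in that of Dspp-/-. Its fold over WT was 3.94 (3.77 to 4.12) for Dspp+/- and 5.77 (5.52 to 6.02) for Dspp-/-. The order of the libraries was that of S100a8.

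Among all genes of the table, S100a9 stood at rank 110 by FPKM in WT, at rank 24 in Dspp+/- and at rank 18 in Dspp-/-. S100a8 stood at ranks 214, 50 and 22. The pair did not keep a constant proportion. The FPKM ratio of S100a9 to S100a8, which does not depend on scaling between libraries, was 1.75 (1.65 to 1.86) for WT, 1.69 (1.64 to 1.74) for Dspp+/- and 1.40 (1.37 to 1.43) for Dspp-/-. S100a8 was thus nearer to S100a9 in Dspp-/- than in the other libraries. Together they made up 83.6% of the fragments of the 8 genes in WT against 77.1% in Dspp+/- and 82.2% in Dspp-/-. All 8 genes summed to 0.0255% of the fragments in the WT library, 0.111% in that of Dspp+/- and 0.166% in that of Dspp-/-.

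Retnlg (ENSMUSG00000022651, chromosome 16, 48692984 to 48694859) encodes a secreted resistin-like protein found in neutrophils and marrow. It had 26.6 FPKM (WT), 134 (Dspp+/-) and 211 (Dspp-/-). Its fold over WT was 5.06 (4.49 to 5.71) for Dspp+/- and 7.93 (7.06 to 8.93) for Dspp-/-. The order of the libraries was again WT, Dspp+/-, Dspp-/-. The FPKM ratio of Retnlg to S100a8 was 0.2001 (0.177 to 0.225) for WT, 0.248 (0.236 to 0.261) for Dspp+/- and 0.220 (0.212 to 0.230) for Dspp-/-. It was highest in Dspp+/-, whose interval overlaps neither of the others.

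**Figure D1:**
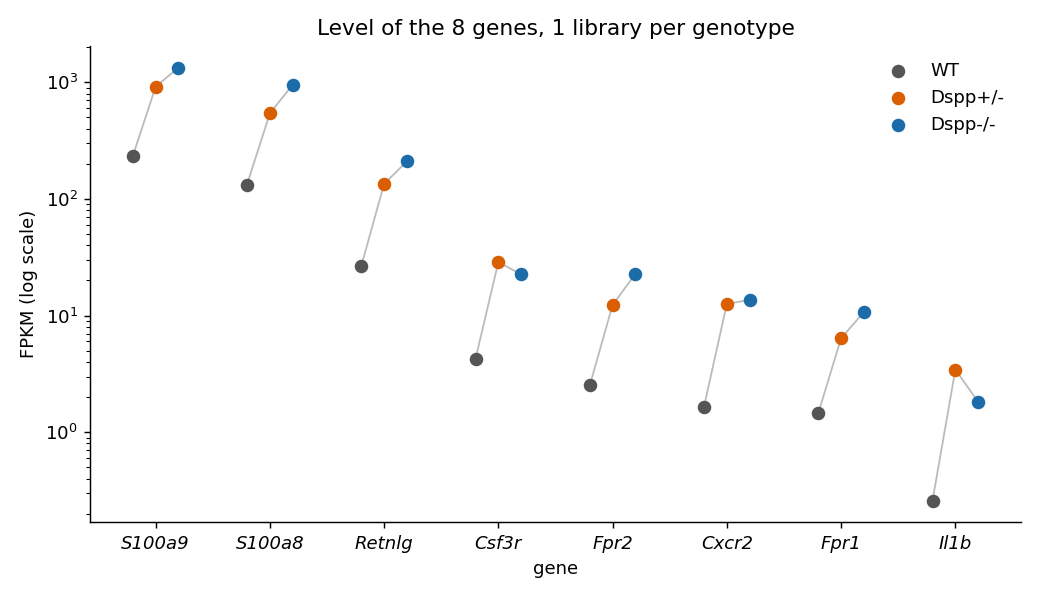
FPKM of the 8 genes on a log axis, with 1 point per library and a grey line joining the points of a gene (no error bars, since each genotype has 1 library). WT is lowest for every gene, and Dspp-/- is above Dspp+/- for every gene except Csf3r and Il1b.

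The receptor genes lay far below the S100 pair, and they divided by which mutant library was higher. Csf3r (ENSMUSG00000028859, chromosome 4, 125918343 to 125938233), the G-CSF receptor gene, had 4.24 FPKM in WT against 28.8 in Dspp+/- and 22.5 in Dspp-/-. Its fold over WT was 6.78 (6.02 to 7.65) for Dspp+/- and 5.31 (4.71 to 6.01) for Dspp-/-. For Csf3r the heterozygous library was the highest. Cxcr2 (ENSMUSG00000026180, chromosome 1, 74193148 to 74200405), a receptor gene for neutrophil-attracting chemokines, had 1.65 FPKM in the WT library, 12.6 in that of Dspp+/- and 13.6 in that of Dspp-/-. Its fold was 7.63 (6.21 to 9.46) for Dspp+/- and 8.24 (6.71 to 10.2) for Dspp-/-, and these intervals overlap.

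The formyl peptide receptor genes followed the S100 pair. Fpr1 (ENSMUSG00000045551, chromosome 17, 18096733 to 18104202) had 1.46 FPKM (WT), 6.40 (Dspp+/-) and 10.7 (Dspp-/-), from 39, 200 and 316 fragments. Its fold over WT was 4.40 (3.11 to 6.37) for Dspp+/- and 7.37 (5.27 to 10.6) for Dspp-/-. Fpr2 (ENSMUSG00000052270, chromosome 17, 18108086 to 18114214), which also binds annexin A1, had 2.52 FPKM in WT against 12.4 in Dspp+/- and 22.8 in Dspp-/-. Its fold was 4.91 (3.77 to 6.48) for Dspp+/- and 9.05 (7.02 to 11.8) for Dspp-/-. For both genes Dspp-/- was highest, and Fpr2 stayed above its neighbour, with an FPKM ratio to Fpr1 of 1.73 (1.15 to 2.64) in the WT library, 1.93 (1.62 to 2.30) in that of Dspp+/- and 2.12 (1.85 to 2.44) in that of Dspp-/-. These intervals overlap. Of the 100-base sequences of Fpr2, 12.3% also occur in another gene in GENCODE M21, where 3.70% of its exon length overlaps Fpr3 on the same strand, so some of its fragments could belong elsewhere.

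Il1b (ENSMUSG00000027398, chromosome 2, 129206490 to 129213059) was the least abundant of the 8 and had the widest intervals. It had 0.259 FPKM (WT), 3.44 (Dspp+/-) and 1.81 (Dspp-/-), from 10, 155 and 77 fragments. Its fold over WT was 13.3 (7.03 to 28.3) for Dspp+/- and 7.00 (3.61 to 15.2) for Dspp-/-, and these intervals overlap. The library preparation as described does not mark strand, and 1.31% of its exon length overlaps the antisense gene Il1bos in GENCODE M21.

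**Figure D2:**
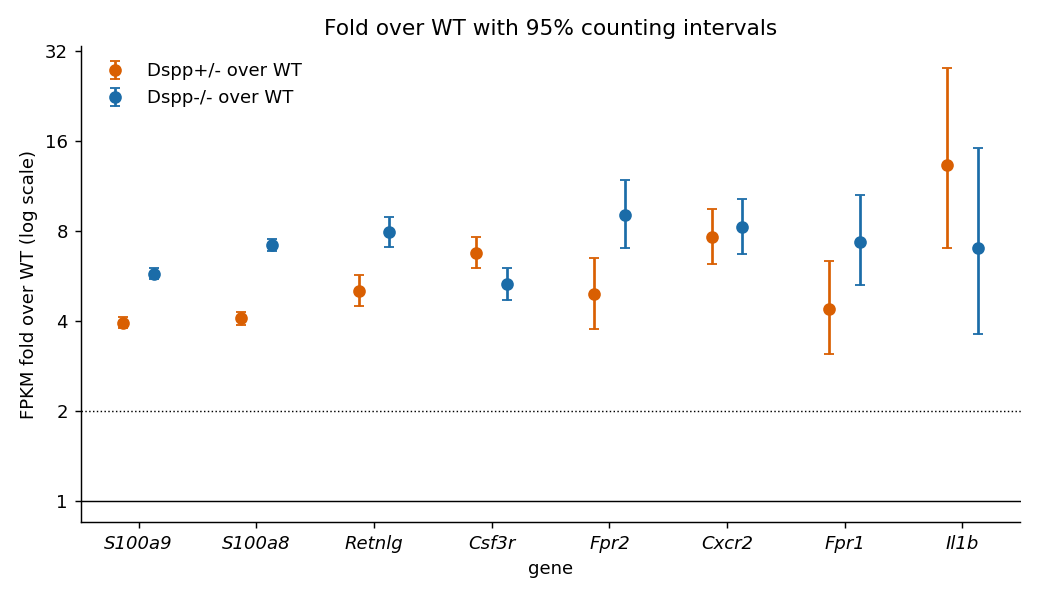
FPKM fold over WT (log axis) in Dspp+/- and Dspp-/- for the 8 genes, with bars for the 95% counting interval, a line at 1 and a dotted line at 2. Every interval lies above 2, and that of Il1b in Dspp+/- is the widest, from 7.03 to 28.3.

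On the log2(FPKM + 1) scale, which understates changes of low genes, all 8 genes were at least 2-fold higher in Dspp+/- than in WT, where 4.88% of the 13026 genes compared were. All 8 were also at least 2-fold higher in Dspp-/- than in WT, against 4.05% of the genes compared. The genes were chosen with these differences known, so nothing is read from either count. The WT library is shared by both comparisons. The median log2 ratio of the 8 genes was 1.997 in Dspp+/- and 2.49 in Dspp-/-, beside medians over all compared genes of 0.058 and 0.0070. In Dspp+/- the log2 ratios ran from 1.59 for Fpr1 to 2.505 for Csf3r, and in Dspp-/- from 1.16 for Il1b to 2.94 for Retnlg. In Dspp+/- the number of genes with a larger log2 ratio ran from 54 for Csf3r to 233 for Fpr1. It ran from 19 for Retnlg to 405 for Il1b in Dspp-/-. With a pseudocount of 5 in place of 1, the log2 ratios of Il1b and Fpr1 in Dspp+/- were 0.68 and 0.82 and that of Il1b in Dspp-/- was 0.37, which is under 2-fold.

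Within each library the levels per length kept nearly the same order. S100a9 was highest, followed by S100a8 and Retnlg, and Il1b was lowest in all 3 libraries. The order of the receptor genes between them differed. In WT, Csf3r was followed by Fpr2, Cxcr2 and Fpr1, and the FPKM ratio of the neighbours Cxcr2 and Fpr1 was 1.14, with an interval from 0.778 to 1.69. In Dspp+/- the order was Csf3r, Cxcr2, Fpr2 and Fpr1, and Cxcr2 and Fpr2 had a ratio of 1.02 (0.905 to 1.15). In Dspp-/- Fpr2 came first, at 1.01 times Csf3r (0.923 to 1.11). Those are the neighbours whose levels did not differ beyond counting error. The proportions to Csf3r, which need no scaling between libraries, also differed. The FPKM ratio of S100a8 to Csf3r was 31.3 (27.7 to 35.4) for WT, 18.8 (18.0 to 19.7) for Dspp+/- and 42.4 (40.4 to 44.6) for Dspp-/-. That of Cxcr2 to Csf3r was 0.390 (0.308 to 0.489), 0.439 (0.406 to 0.474) and 0.604 (0.558 to 0.655) in the same order. Relative to the G-CSF receptor transcript, S100a8 was lowest in Dspp+/-, and both genes were highest in Dspp-/-.

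Set against each other, the mutant libraries differed in 7 of the 8 genes by more than counting error, with 5 higher and 2 lower in Dspp-/-. The share of all compared genes that differed by more than counting error was not computed, so nothing is read from this count. None of the 8 differed by 2-fold on the log2(FPKM + 1) scale, where 0.852% of the genes compared were at least 2-fold higher in Dspp-/- than in Dspp+/- and 0.798% at least 2-fold lower. The FPKM fold of Dspp-/- over Dspp+/- was 1.84 (1.62 to 2.099) for Fpr2, 1.77 (1.72 to 1.81) for S100a8, 1.68 (1.40 to 2.01) for Fpr1, 1.57 (1.48 to 1.66) for Retnlg and 1.46 (1.43 to 1.498) for S100a9. It was 1.08 (0.984 to 1.18) for Cxcr2, whose interval holds 1. Csf3r was lower, with a fold of 0.784 (0.737 to 0.833), and so was Il1b, with 0.527 (0.396 to 0.697). The median log2 ratio of the 8 genes was 0.60, beside -0.037 over all compared genes. Whether mice of these genotypes differ in the same way was not tested, since each pool is 1 library.

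**Figure D3:**
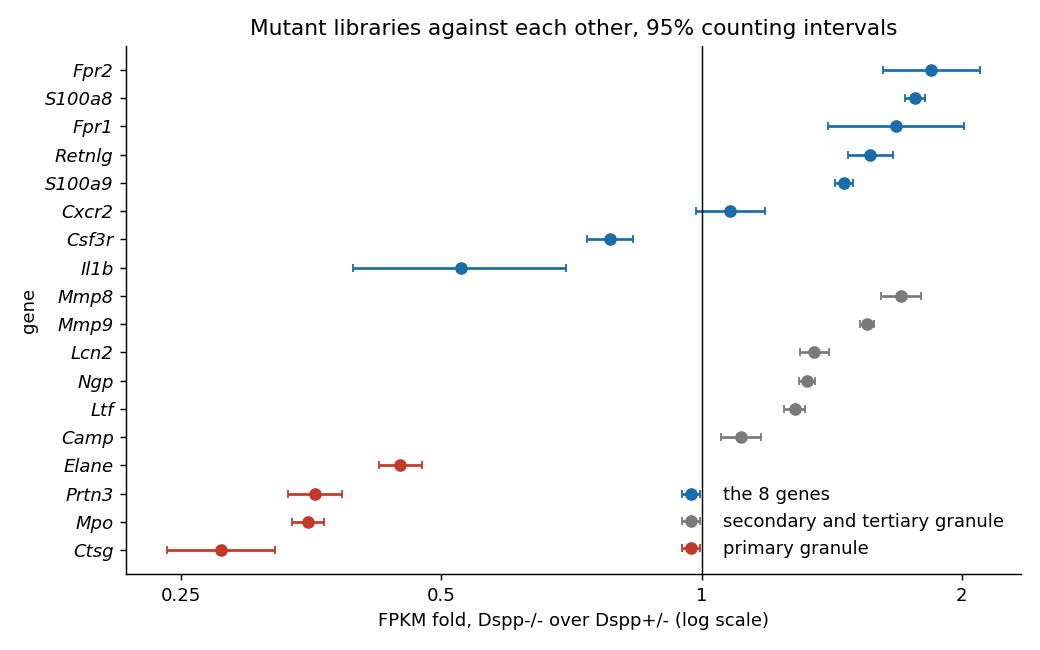
FPKM fold of Dspp-/- over Dspp+/- (log axis) with 95% counting intervals for the 8 genes, 6 secondary and tertiary granule genes and 4 primary granule genes. All 4 primary granule genes lie below 0.5, all 6 later granule genes lie above 1, and the 8 genes spread from 0.527 for Il1b to 1.84 for Fpr2.

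Granule genes of earlier stages were set beside the 8 genes. The primary granule genes Elane, Mpo, Prtn3 and Ctsg, which encode proteases and myeloperoxidase, had summed levels of 12.2 FPKM in WT against 396 in Dspp+/- and 154 in Dspp-/-. Their median log2 ratio to WT was 4.48 in Dspp+/- and 3.01 in Dspp-/-, so it lay above that of the 8 genes in both comparisons. Against Dspp+/-, all 4 were more than 2-fold lower in Dspp-/-, with a median log2 ratio of -1.47. Elane had 4.77 FPKM in the WT library, 175 in that of Dspp+/- and 78.3 in that of Dspp-/-. The FPKM ratio of S100a8 to Elane was 27.8 (22.7 to 34.6) for WT, 3.10 (2.99 to 3.22) for Dspp+/- and 12.2 (11.6 to 12.8) for Dspp-/-. The level of S100a8 relative to Elane was thus lowest in Dspp+/-.

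The medians of the secondary and tertiary granule genes lay nearer to those of the 8 genes. Of 6 genes, Ltf, Camp, Ngp, Lcn2 and Mmp8 were at least 2-fold higher than in WT in both mutant libraries, while Mmp9, which osteoclasts also express, had 552 FPKM in WT against 239 in Dspp+/- and 371 in Dspp-/-. Ngp, a neutrophil granule protein gene with the highest mean of the list, had 145, 562 and 744 FPKM in the same order. The list's median log2 ratio was 1.86 in Dspp+/- and 2.27 in Dspp-/-, and all 6 genes were higher in Dspp-/- than in Dspp+/-, with a median of 0.42. The FPKM ratio of S100a8 to the lactoferrin gene Ltf was 4.61 (4.33 to 4.91) in the WT library, 5.14 (4.99 to 5.298) in that of Dspp+/- and 7.08 (6.91 to 7.27) in that of Dspp-/-.

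Of 18 other transcripts of band and segmented neutrophils, 17 were compared, and 15 of them were at least 2-fold higher than in WT in each mutant library. Those 15 include Stfa2l1, which had 1 fragment in WT, under the floor of 3 fragments, against 28 in Dspp+/- and 14 in Dspp-/-. The list's median log2 ratio was 1.68 in Dspp+/- and 1.57 in Dspp-/-. Ly6g, the surface marker used to define mouse neutrophils, had 2.99 FPKM (WT), 11.6 (Dspp+/-) and 17.5 (Dspp-/-). None of the 18 genes was at 0 in any library. Between the mutant libraries 10 were higher and 7 lower in Dspp-/-, and G0s2, a lipolysis inhibitor gene that fat cells also express, was the 1 that differed by 2-fold, with 11.9 FPKM in WT against 40.7 in Dspp+/- and 14.1 in Dspp-/-.

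Several of the 8 genes are also transcribed in monocytes and macrophages. All 15 markers of those cells were compared, and their summed level was 220 FPKM in the WT library, 247 in that of Dspp+/- and 228 in that of Dspp-/-, with none at 0. Their median log2 ratio was 0.13 in Dspp+/- and 0.0065 in Dspp-/-. Of the 15, 10 were higher and 5 lower in Dspp+/-, and 8 were higher and 7 lower in Dspp-/-. Only Ly6c2, Ccr2 and Ms4a6c were at least 2-fold higher in Dspp+/-, and Ly6c2 and Ccr2 in Dspp-/-. Csf1r, Cd14 and Cx3cr1 had log2 ratios of -0.76, -0.16 and -0.071 in Dspp+/- and of -0.37, -0.11 and 0.0065 in Dspp-/-. Ly6c2 had 1.97 FPKM (WT), 31.9 (Dspp+/-) and 22.7 (Dspp-/-), the order of libraries seen for Il1b and Csf3r. The macrophage genes C1qa, C1qb and C1qc had log2 ratios from -0.77 to 0.18 in the mutant libraries. In bulk tissue, more cells of a type and more RNA of these genes per cell cannot be told apart.

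**Figure D4:**
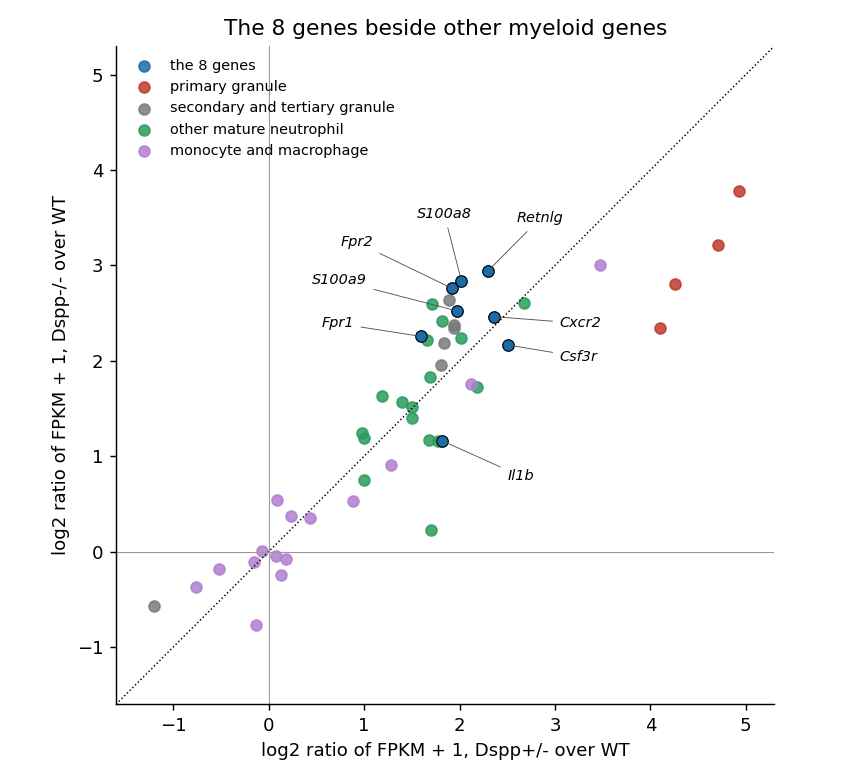
log2 ratio of FPKM + 1 in Dspp-/- over WT against that in Dspp+/- over WT, with 1 point per gene averaging 1 FPKM or more and a dotted line of equal ratios. The 8 genes (outlined and named) lie above 1 on both axes, as do 5 of the 6 later granule genes, while Mmp9 lies below 0 on both. The 4 primary granule genes lie to the right of the line, and most monocyte and macrophage genes lie near 0. Both axes share the WT library.

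Ligands of the receptors were mostly scarce. Csf3, the G-CSF gene, had 0 fragments in WT and Dspp+/- and 1 in Dspp-/-, and Cxcl2 had 0, 2 and 0, so neither was detectable above the floor of 3 fragments. Cxcl1 had 2, 12 and 4 fragments, and Cxcl5 had 0, 16 and 15. Only Anxa1 and Ppbp averaged 1 FPKM or more. Ppbp, a CXCR2 ligand that platelets store, had 10.4 FPKM in WT against 75.6 in Dspp+/- and 86.7 in Dspp-/-. Anxa1, which encodes the FPR2 ligand annexin A1, had 60.0 FPKM in the WT library, 59.0 in that of Dspp+/- and 92.5 in that of Dspp-/-. Cxcl3 was not analysed here.

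Receptors and partners of calprotectin had medians near 0, unlike S100a8 and S100a9. Of 5 genes, 4 were compared, with a median log2 ratio of -0.17 in Dspp+/- and 0.061 in Dspp-/-. Tlr4 had 6.53 FPKM (WT), 6.33 (Dspp+/-) and 8.91 (Dspp-/-). Bsg, the basigin gene and one of the 2 most abundant of the list, had 177, 143 and 115 FPKM. Cd36, the other, was the 1 gene at least 2-fold higher in both, with 84.1, 217 and 175 FPKM, and is also expressed by fat and endothelial cells.

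Among the compared genes of interleukin 1 production and reception, the decoy receptor and receptor antagonist genes differed most from WT. Of 11 genes, 9 were compared, with a median log2 ratio of 0.20 in Dspp+/- and 0.26 in Dspp-/-. The 2 most abundant were Myd88 (7.67 FPKM in WT, 8.80 in Dspp+/-, 9.40 in Dspp-/-) and Il1r1, the signalling receptor gene (8.46, 8.33 and 7.18 FPKM). At least 2-fold higher in Dspp+/- were Il1rn, the receptor antagonist gene, and Il1r2, the decoy receptor gene, and in Dspp-/- only Il1r2. Il1r2 had 0.311 FPKM in WT against 3.196 in Dspp+/- and 1.95 in Dspp-/-. Nlrp3, a sensor that leads to cleavage of pro-interleukin 1 beta, had 13 fragments in the WT library, 150 in that of Dspp+/- and 68 in that of Dspp-/-, and its fold of Dspp-/- over Dspp+/- was 0.481 (0.356 to 0.645). Il1b, Il1r2, Il1rn and Nlrp3 were all highest in Dspp+/-.

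Signalling genes below the chemoattractant receptors, with the NADPH oxidase, were compared in full. Of 13 genes, 8 were at least 2-fold higher in Dspp+/- and 7 in Dspp-/-, with medians of 1.15 and 1.07 on the log2 scale. Cybb, the catalytic subunit gene of the oxidase, had 7.08 FPKM (WT), 28.8 (Dspp+/-) and 33.9 (Dspp-/-). The 2 most abundant, Gnai2 and Cyba, which many cell types express, had log2 ratios of -0.14 and 0.50 in Dspp+/- and -0.071 and 0.33 in Dspp-/-. None of the 13 differed by 2-fold between the mutant libraries.

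Signalling genes below the G-CSF receptor, listed with granulocyte transcription factors, had medians near 0, unlike Csf3r itself. Of 10 genes, Lyn and Cebpe were at least 2-fold higher in Dspp+/- and Cebpe alone in Dspp-/-, and the median log2 ratio was 0.15 and -0.13. Cebpe, which encodes the C/EBP factor of late granulocyte precursors, had 1.63 FPKM in WT against 10.7 in Dspp+/- and 7.68 in Dspp-/-. Cebpb and Cebpd were the 2 with the highest mean, at 63.4 and 29.8 FPKM in WT, 85.9 and 19.7 in Dspp+/-, and 51.5 and 11.8 in Dspp-/-. Cebpd was more than 2-fold lower than WT in Dspp-/-, with a log2 ratio of -1.26. Spi1, which encodes PU.1 and is also active in osteoclasts and macrophages, had 16.3, 17.8 and 15.7 FPKM.

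Of other members of the same gene families, the S100 genes mostly did not move with the 8 genes, while the resistin and CXC receptor genes varied. Of 12 other S100 genes in the table, 8 were compared, none was 2-fold different from WT in either mutant library, and their median log2 ratio was -0.52 in Dspp+/- and -0.37 in Dspp-/-. S100a11 had 96.3 FPKM in the WT library, 125 in that of Dspp+/- and 150 in that of Dspp-/-, and S100a1 had 61.1, 79.0 and 64.0 FPKM. Of the other resistin genes, Retn, an adipocyte hormone gene in mice, had 1.47, 0.590 and 3.501 FPKM, and Retnla had 3.71, 4.595 and 8.10 FPKM. Among other CXC receptor genes, Cxcr4, which holds neutrophils in the marrow, had 9.21 FPKM (WT), 28.0 (Dspp+/-) and 28.3 (Dspp-/-), and Ackr3 had 38.0, 24.2 and 25.7 FPKM. Cxcr1, Cxcr3, Cxcr5 and Cxcr6 averaged under 1 FPKM and had 9 fragments or fewer in WT. Their FPKM was higher in both mutant libraries than in WT. The FPKM ratio of Cxcr2 to Cxcr4 was 0.180 (0.142 to 0.225) for WT, 0.451 (0.413 to 0.492) for Dspp+/- and 0.482 (0.441 to 0.526) for Dspp-/-. No sorting of cells is described, so this ratio cannot be assigned to neutrophils. The other formyl peptide receptor genes were not analysed here.

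The genes whose pattern lay closest to the median of the 8 were sought among 7123 other genes that averaged 5 FPKM or more, by distance in the plane of the log2 ratios to WT. They were Lcn2, Ngp, Mcemp1, Mmp8 and Igkv6-15, at distances of 0.134 to 0.186 on the log2 scale over 3 libraries. Lcn2, the lipocalin gene of secondary granules, had 18.0 FPKM in the WT library, 72.1 in that of Dspp+/- and 97.3 in that of Dspp-/-. Mcemp1, a membrane protein gene, had 1.39, 9.10 and 13.8 FPKM, and Igkv6-15, a variable segment of the immunoglobulin kappa locus, had 2.14, 10.1 and 17.6 FPKM.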

How the data were processed

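RNA-seq of mouse condyles, 1 library per genotype, was analysed from 1 table. The authors deposited values per gene with no unit named, and they were read as FPKM, since value times merged exon length (GENCODE M21) was whole to within 0.05 fragments for about 98.6% of genes under 100 fragments in each library. The submitters' processing notes list FastQC 0.11.5, HISAT2 2.1.0, StringTie 1.3.3b, DESeq 1.28.0 and the human build hg38. The identifiers are of mouse, and 589 of 26652 genes share start and end with GRCm38, so coordinates of the table and of the promoters are of different builds. FPKM makes no correction for composition, and a larger mitochondrial share lowers all other genes.

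Depth and fragments per gene were recovered from these steps, after tests on simulated data. Folds are FPKM ratios with 95% Clopper-Pearson intervals. Counts use log2(FPKM + 1), a mean of at least 1 FPKM and a 2-fold threshold. PCR duplicates cannot be recognised, so intervals cover counting error only. Members and gene lists were chosen with earlier results of these data known. Named are the 8 genes, for each pathway or family list the 2 most abundant genes compared and any gene 2-fold against the list's median, and the 5 genes closest in pattern. Further list genes were named after their values were seen. Il1r2 and Cxcr4 are in 2 lists each. The B cell, T cell, osteoclast, chondrocyte and endothelial lists had median log2 ratios in Dspp+/- of 1.36, 0.24, -1.36, -2.50 and 0.25, and in Dspp-/- of 1.18, 0.050, -0.60, -1.03 and 0.23. Dspp was not analysed here and gives no check of the labels. Alternatives were pseudocounts, scalings, filters and folds. The work used matplotlib 3.10.9, scipy 1.17.1, pandas 2.3.3 and numpy 2.4.6 under Python 3.11.15.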

Additional observations from a re-analysis of the deposited data

How the results depend on the processing

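With 1 library per genotype, neither the spread between mice nor leaving out a replicate could be computed. No paired analysis was possible because each genotype has 1 library. All 8 genes stayed above WT in both mutant libraries, and 6 of 8 stayed higher in Dspp-/- than in Dspp+/-, under pseudocounts of 0.1 and 5 and the 4 other scalings. Each move was set against the distance from the middle to an end of the gene's counting interval on the log2 scale. Of 144 values of single genes under these alternatives, 120 moved by no more than that, 24 moved more and 0 changed sign. The pseudocount moved the median log2 ratio of the 8 genes most, to 2.29 (0.1) and 1.64 (5) in Dspp+/- and to 2.82 and 1.73 in Dspp-/-, which follows from its construction.

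The numbers of genes at least 2-fold higher were 636 in Dspp+/- against WT, 527 in Dspp-/- against WT and 111 in Dspp-/- against Dspp+/-. In the same order, a pseudocount of 0.1 gave 971, 836 and 223, a pseudocount of 5 gave 185, 136 and 36, a mean of at least 5 FPKM gave 281, 228 and 57, a threshold of 1.5-fold gave 1501, 1152 and 441, and one of 4-fold gave 124, 103 and 15. Without a filter 172 genes were higher in Dspp-/- than in Dspp+/-.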

Other observations

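Some genes of the pathway and family lists had a mean under 1 FPKM and entered no comparison. Cxcr1, the other receptor gene for neutrophil-attracting chemokines, had 0 fragments in the WT library, 21 in that of Dspp+/- and 19 in that of Dspp-/-. Cxcr5, a receptor gene of B cells, had 8, 95 and 50 fragments, and Cxcr3, a receptor gene of T cells, had 8, 35 and 16. Il1a, which encodes interleukin 1 alpha, had 4 fragments in WT and 27 in each mutant library. Clec4e, a pattern recognition receptor gene of myeloid cells, had 19, 177 and 140 fragments. S100a7a had 20, 39 and 6 fragments, and S100a5 had 11, 0 and 1, so both were at 6 fragments or fewer in Dspp-/-.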
